A study of Mus musculus with 12 samples.

Results

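The genes described here were the keratins of simple epithelium, *Krt7*, *Krt8*, *Krt18*, *Krt19*, *Krt20*, *Krt23* and *Krt80*, together with *Vim*, which encodes vimentin. They were chosen by gene symbol, and 8 of the 52015 genes with a usable value matched. The data were RNA-seq levels of mpkCCD cells, a mouse line derived from principal cells of the cortical collecting duct. Scr cells, transduced with a scramble guide RNA that targets no gene, were set against *Nfat5*-KO cells made by CRISPR/Cas9, which were made to lack the osmosensitive transcription factor NFAT5. Both were grown on plastic for 5 days, either at 300 mosmol/kg (isotonic) or at 600 mosmol/kg, a hypertonic medium made with 100 mM NaCl and 100 mM urea. The groups are called Scr_300, Scr_600, Nfat5-KO_300 and Nfat5-KO_600. Each Scr group had 2 libraries and each Nfat5-KO group 4, namely 2 from each of the clones N1 and N3.

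Keratins are the intermediate filament proteins of epithelial cells, and their filaments form only when a type I chain pairs with a type II chain. In simple epithelia such as the collecting duct the founding pair is keratin 8 (type II) with keratin 18 (type I), joined by keratin 7 and keratin 19. The network is anchored to desmosomes and gives the cell sheet its mechanical strength. Vimentin is the type III filament of mesenchymal cells. Many cultured epithelial lines make it, whereas a collecting duct cell in the kidney largely does not.

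The deposited values are FPKM (fragments counted per gene, scaled for transcript length and library size), with 1 value per gene and group. Libraries were already merged in these values, so no spread between libraries could be computed, no test could be run, and the clones cannot be told apart. Every difference below is therefore a description of 4 pooled values and has no replicate check. Depth per library is not known from these values. A gene was called lower or higher where log2(FPKM + 0.1) differed by at least 1, that is 2-fold, and 1 group reached 0.5 FPKM. In bulk RNA, fewer cells that make a transcript and less of it per cell cannot be told apart.

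The type I and type II genes lie in separate clusters. *Krt8* (chr15:101996698-102004482, minus strand, 9 exons) and *Krt18* (chr15:102028180-102032027, plus strand, 7 exons) are neighbours, with 23.7 kb and no protein-coding gene between them. *Krt18* is a type I gene that lies in the type II cluster. *Krt80* (chr15:101347444-101370162) and *Krt7* (chr15:101411043-101430313) are 40.9 kb apart in the same cluster. *Krt20* (chr11:99428403-99438150, minus strand) and *Krt23* (chr11:99477974-99493137, minus strand) stand 39.8 kb apart in the type I cluster, with *Krt19* (chr11:100140810-100148665) further along. *Vim* is at chr2:13573927-13582826. All coordinates are GRCm38.

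The neighbours *Krt20* and *Krt23* lay on opposite sides of Scr in the knockout cells at 600 mosmol/kg, so the 250 bases before their RefSeq transcription starts are shown 5′ to 3′ on the gene strand. The windows are chr11:99438154-99438403 and chr11:99493121-99493370 on the minus strand of GRCm38.p6. Capitals mark TATAAA, the TATA box letters, which began 29 bases before the *Krt20* start. The *Krt23* sequence holds none of the motifs searched.
Krt20: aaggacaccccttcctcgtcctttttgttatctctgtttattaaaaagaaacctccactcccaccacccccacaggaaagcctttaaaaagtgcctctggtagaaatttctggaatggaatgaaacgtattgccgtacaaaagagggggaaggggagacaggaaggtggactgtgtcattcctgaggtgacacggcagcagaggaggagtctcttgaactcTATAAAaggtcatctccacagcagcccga
Krt23: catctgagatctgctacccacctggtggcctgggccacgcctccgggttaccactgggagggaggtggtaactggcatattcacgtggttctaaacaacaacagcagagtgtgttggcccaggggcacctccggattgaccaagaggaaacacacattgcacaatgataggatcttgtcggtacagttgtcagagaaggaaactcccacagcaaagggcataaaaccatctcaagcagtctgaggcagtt
A window of 300 bases, 250 before and 50 after the start, was held for 6 of the 8 genes (all but *Krt19* and *Krt80*) and for 32851 promoters in all. It was searched on both strands for the TonE consensus, the osmotic response element bound by NFAT5, for its first letters TGGAAA, for the AP-1 site TGANTCA, for the GC box GGGCGG and for TATAAA. The TonE consensus, TGGAAA and TGANTCA were in 0 of the 6 windows, against 4.96%, 21.4% and 7.81% of all promoters. GGGCGG was found only in the *Krt7* window, at 4 places, and in 35.7% of all promoters. TATAAA was in the *Krt20*, *Vim* and *Krt8* windows and in 13.6% of all promoters, and in *Krt8* it spanned the annotated start. The windows follow RefSeq starts. The GENCODE gene starts given above lie 140 bases upstream of these for *Krt8*, 1360 for *Krt7*, 384 for *Vim* and 36 for *Krt18*, so by GENCODE the *Krt8*, *Vim* and *Krt7* matches fall inside the annotated gene. These matches are letters in a window, not measured binding. More distant sequence was not searched.

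*Krt18* was the most abundant of the 8 genes in every group. It had 738 FPKM in Scr_300, 535 in Scr_600, 659 in Nfat5-KO_300 and 469 in Nfat5-KO_600, and its rank among all genes was between 24 and 27. Its type II partner *Krt8* had 370 FPKM in Scr_300, 244 in Scr_600, 375 in Nfat5-KO_300 and 188 in Nfat5-KO_600. Both partners were thus higher in the isotonic group than in the hypertonic group of either genotype. *Krt7*, the type II keratin typical of ducts, had 161 FPKM in Scr_300, 104 in Scr_600, 189 in Nfat5-KO_300 and 96.5 in Nfat5-KO_600. *Krt19*, an unusually short type I keratin that lacks most of the tail domain, had 154 FPKM in Scr_300, 67.9 in Scr_600, 173 in Nfat5-KO_300 and 49.3 in Nfat5-KO_600. These 4 genes formed an abundant tier, and *Krt7* and *Krt19* lay close to each other in both isotonic groups but not in the hypertonic ones.

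The remaining genes were much less abundant. *Krt20*, a type I keratin known from intestinal and urothelial surface cells, had 18.7 FPKM in Scr_300, 7.31 in Scr_600, 42.6 in Nfat5-KO_300 and 17.5 in Nfat5-KO_600. *Krt80*, a type II keratin found in many epithelia, had 7.61 FPKM in Scr_300, 3.74 in Scr_600, 12.1 in Nfat5-KO_300 and 4.18 in Nfat5-KO_600. The isotonic knockout group was the highest for both, and Scr_600 the lowest. *Krt23*, a stress-inducible type I keratin, had 0.213 FPKM in Scr_300, 1.54 in Scr_600, 0.0202 in Nfat5-KO_300 and 0.0811 in Nfat5-KO_600, so Scr_600 alone passed 0.5 FPKM. *Vim* had 0.00330 FPKM in Scr_300, 0.0101 in Nfat5-KO_300 and 0.00301 in Nfat5-KO_600, and was listed at 0 in Scr_600. Vimentin RNA was thus close to 0 in every group, and *Vim* entered no fold count.

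**Figure D1:**
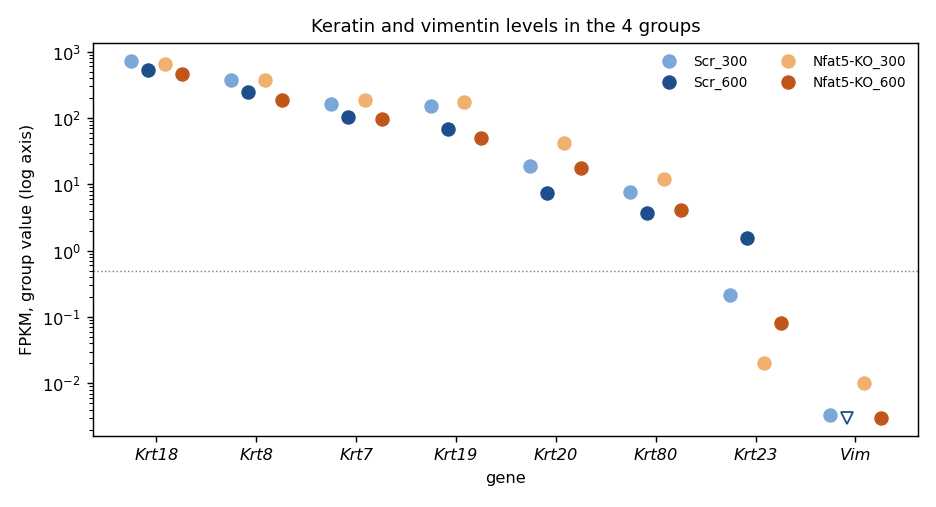
Level of each keratin gene and *Vim* in FPKM on a log axis, 1 point per group (1 pooled value each, no error bar). The dotted line marks 0.5 FPKM and the open triangle marks *Vim* in Scr_600, listed at 0. *Krt18* lies between 469 and 738 FPKM, while *Vim* stays at or below 0.0101 FPKM.

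The first comparison, Scr_600 vs. Scr_300, asks how keratin RNA differed with tonicity in control cells. *Krt20*, *Krt19* and *Krt80* were lower in the hypertonic cells by 2.55-fold, 2.26-fold and 2.03-fold in FPKM, and *Krt23* was 7.24-fold higher. On the log2(FPKM + 0.1) scale these were differences of -1.34, -1.18, -1.01 and 2.39. Of the 7 genes of the set that passed the filter, 3 were thus at least 2-fold lower and 1 at least 2-fold higher. Over all 12929 genes that passed, 2.86% were at least 2-fold lower and 4.81% at least 2-fold higher. *Krt23* passed the filter only through the group where it was high, so its call carries no weight as a count.

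The abundant keratins differed less. *Krt7* was lower in Scr_600 by 1.56-fold (log2 -0.64), *Krt8* by 1.52-fold (log2 -0.60) and *Krt18* by 1.38-fold (log2 -0.46). At a 1.5-fold rule, 5 genes of the set were lower and 1 was higher, against 9.01% of all genes lower and 10.4% higher. *Krt80* lay just inside the 2-fold rule and left it with a pseudocount of 1 (-0.86) or with median-of-ratios scaling (-0.99), where 2 genes of the set were at least 2-fold lower. Ranked among all genes, the lower genes of the set ran from *Krt20*, below which stood 1.51% of genes, to *Krt18*, below which stood 13.5%.

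In the second comparison, Nfat5-KO_600 vs. Nfat5-KO_300, the same question was put to the *Nfat5*-KO cells. *Krt19* was 3.52-fold lower in the hypertonic group, *Krt80* 2.89-fold lower and *Krt20* 2.43-fold lower, with log2 differences of -1.81, -1.51 and -1.27. Of the 6 genes that passed the filter, these 3 were at least 2-fold lower and 0 were at least 2-fold higher, beside 4.11% and 6.25% of all 12982 genes. *Krt8* and *Krt7* stopped just outside the rule, at log2 differences of -0.997 and -0.97. *Krt18* differed least, by 1.41-fold (log2 -0.49). At 1.5-fold, 5 genes of the set were lower and 0 higher, against 13.8% and 14.1% of all genes. Both genotypes thus had lower levels of the same 6 keratins at 600 than at 300 mosmol/kg.

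Highly expressed genes were on the whole lower in hypertonic groups, which bears on the abundant keratins. Among the 851 genes that averaged 50 FPKM or more, a level chosen after values were seen, the median log2 difference was -0.18 in Scr_600 vs. Scr_300 and -0.36 in Nfat5-KO_600 vs. Nfat5-KO_300. The median over all genes that passed the filter was -0.04 in both. Of these abundant genes, 13.5% were at least 1.5-fold lower in the first comparison and 26.0% in the second. All 4 abundant keratins were below both medians in each comparison, *Krt18* by the least. How far this general difference enters the keratin values was not tested.

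**Figure D2:**
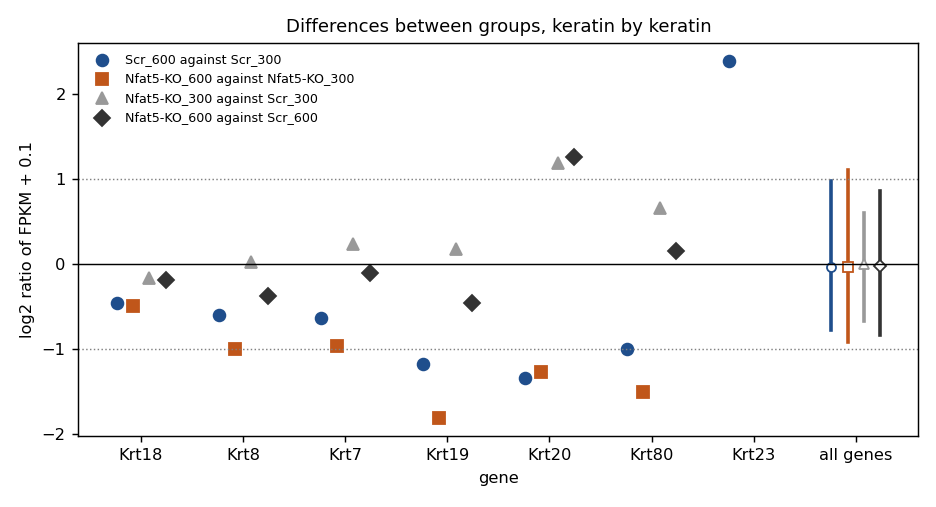
Log2 ratio of FPKM + 0.1 for each keratin in the 4 comparisons, with dotted lines at 2-fold. At the right, vertical lines span the 5th to 95th percentile of all genes that passed the filter and open symbols their median. Both hypertonic ratios are below 0 for 6 keratins, *Krt20* is above 1 in both knockout ratios, and *Krt23* has a ratio only in Scr_600 vs. Scr_300, where it is 2.39.

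The third comparison, Nfat5-KO_300 vs. Scr_300, sets knockout against control cells in isotonic medium. *Krt20* was 2.28-fold higher in the knockout (log2 1.18) and *Krt80* 1.58-fold higher (log2 0.66). The abundant keratins were near equal, at log2 0.23 for *Krt7*, 0.17 for *Krt19*, 0.02 for *Krt8* and -0.16 for *Krt18*. Of the 6 genes that passed, 0 were at least 2-fold lower and 1 was higher, beside 2.44% and 1.73% of all 12704 genes. At 1.5-fold the counts were 0 lower and 2 higher, beside 6.21% and 5.27%. *Krt23* was below 0.5 FPKM in both groups and got no ratio.

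In the fourth comparison, Nfat5-KO_600 vs. Scr_600, *Krt20* was again higher, by 2.40-fold (log2 1.25). *Krt23* was lower, at 0.0811 FPKM against 1.54 FPKM. No fold is given for *Krt23*, because the knockout value is under 0.1 FPKM. *Krt19* was 1.38-fold lower (log2 -0.46) and *Krt8* 1.30-fold lower (log2 -0.38), while *Krt18* (-0.19), *Krt7* (-0.10) and *Krt80* (0.15) lay nearer to 0. Of the 7 genes that passed, 1 was at least 2-fold lower and 1 higher, beside 3.68% and 3.76% of all 13063 genes, and the counts at 1.5-fold were also 1 and 1, beside 9.44% and 9.84%. The lower gene was *Krt23*, which passed the filter only through Scr_600, so this call too carries no weight as a count. For *Krt20* the knockout value exceeded the Scr value at each osmolality. Its ranges by genotype still overlapped, since Nfat5-KO_600 (17.5 FPKM) was below Scr_300 (18.7 FPKM).

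The 4 comparisons share groups, so their values are given side by side and not as separate evidence. The hypertonic log2 difference in Nfat5-KO minus that in Scr was -0.64 for *Krt19*, -0.50 for *Krt80*, -0.40 for *Krt8* and -0.33 for *Krt7*, meaning that the hypertonic level was further below the isotonic one in the knockout. It was -0.03 for *Krt18* and 0.07 for *Krt20*. Over 13115 genes the median of this measure was -0.01 and its quartiles were -0.26 and 0.24. *Krt19*, *Krt80*, *Krt8* and *Krt7* were thus below the lower quartile, with 6.86%, 10.6%, 15.6% and 19.6% of genes lower still. Whether these differences exceed the spread between libraries or between clones was not tested. The 851 abundant genes, with *Krt19*, *Krt8* and *Krt7* among them, had hypertonic medians of -0.36 in Nfat5-KO and -0.18 in Scr. Where the keratins stand among those genes alone was not tested.

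Summed over the 7 keratins, the level was 1450 FPKM in Scr_300, 963 in Scr_600, 1451 in Nfat5-KO_300 and 824 in Nfat5-KO_600. The isotonic sums thus matched closely, and the hypertonic sums were 1.51-fold lower in Scr and 1.76-fold lower in Nfat5-KO. As a share of all FPKM the 7 genes held 0.571% in Scr_300, 0.415% in Scr_600, 0.578% in Nfat5-KO_300 and 0.388% in Nfat5-KO_600. They made up between 98.8% and 99.6% of the FPKM of all 50 keratin genes in the table, so these cells carried almost purely the simple epithelial set.

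Type II keratins summed to less than type I in every group. FPKM is scaled by transcript length, so levels of different genes were set side by side on it. The length used for each gene is not known from these values. The size of a ratio between genes is therefore less certain than its difference between groups. The type II to type I ratio was 0.593 in Scr_300, 0.575 in Scr_600, 0.658 in Nfat5-KO_300 and 0.538 in Nfat5-KO_600. For the founding pair alone, *Krt8* over *Krt18* was 0.502 in Scr_300, 0.457 in Scr_600, 0.569 in Nfat5-KO_300 and 0.400 in Nfat5-KO_600. The ratio was lower in the hypertonic group of both genotypes, and the knockout groups held the highest and the lowest ratio. Within the sum the *Krt18* share was 50.9% in Scr_300 and 55.5% in Scr_600, and 45.4% in Nfat5-KO_300 and 56.9% in Nfat5-KO_600. The *Krt19* share went the other way, with 10.6%, 7.05%, 11.9% and 5.98% in the same order.

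**Figure D3:**
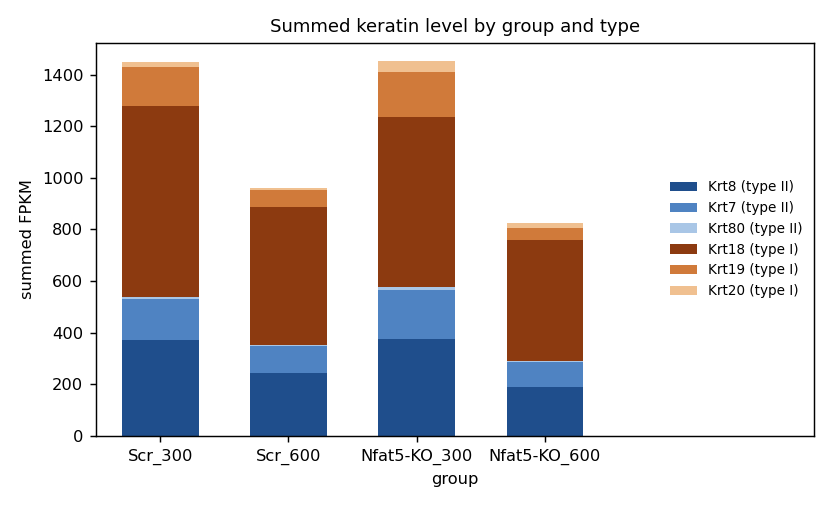
Summed FPKM of *Krt8*, *Krt7* and *Krt80* (type II, blue) and *Krt18*, *Krt19* and *Krt20* (type I, brown) per group, 1 pooled value each. *Krt23* is too low to be drawn. The bars reach about the same height in Scr_300 (1450 FPKM) and Nfat5-KO_300 (1451 FPKM) and are lower in Scr_600 (963 FPKM) and Nfat5-KO_600 (824 FPKM).

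The other 43 keratin genes were low. Of these, 7 reached 0.5 FPKM in a group, and 4 were listed at 0 throughout. *Krt5*, the type II keratin of basal cells, had 8.51 FPKM in Scr_300, 0.718 in Scr_600, 2.22 in Nfat5-KO_300 and 3.56 in Nfat5-KO_600. Its usual type I partner *Krt14* had 0.278 FPKM in Scr_300, 0.0158 in Scr_600, 1.36 in Nfat5-KO_300 and 0.184 in Nfat5-KO_600. The partners thus peaked in different groups, and both were lowest in Scr_600. *Krt4*, a type II keratin of mucosal stratified epithelium, had 2.45, 0.400, 0.884 and 1.92 FPKM in the same order. *Krt5* and *Krt4* were lower at 600 than at 300 mosmol/kg in Scr (log2 -3.40 and -2.35) but higher in Nfat5-KO (0.66 and 1.04), which none of the simple keratins with a ratio in both genotypes showed. *Krt16*, a keratin of activated stratified epithelium, had 0.977, 0.0536, 2.85 and 0.763 FPKM. The rest of the 7 differed less in Scr cells. *Krt10*, a keratin of differentiating epidermis, had 1.24, 1.02, 1.13 and 0.716 FPKM, *Krt87* had 0.943, 0.682, 0.612 and 0.953 FPKM, and the log2 difference in Scr_600 vs. Scr_300 was -0.25 and -0.42. *Krt88* had 0.252, 0.286, 0.208 and 0.588 FPKM and passed 0.5 FPKM in Nfat5-KO_600 alone.

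**Figure D4:**
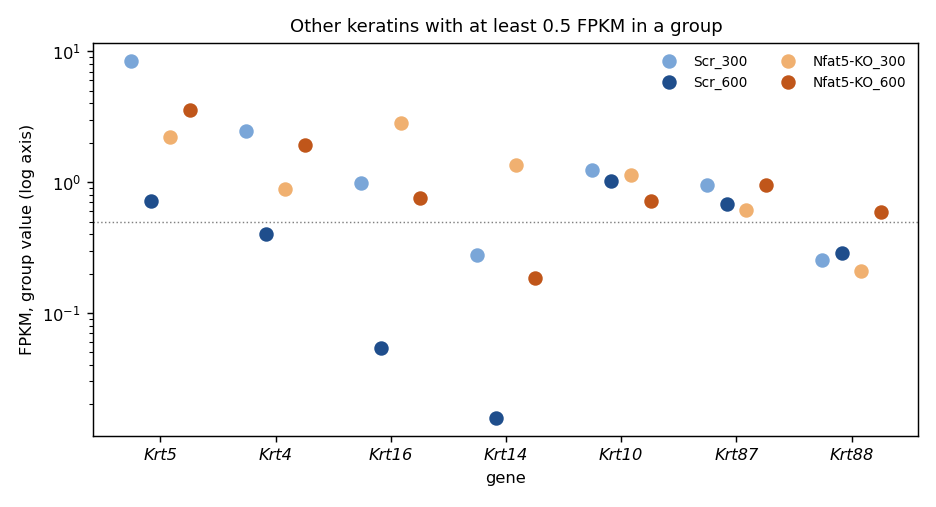
Level in FPKM on a log axis of the 7 other keratins that reached 0.5 FPKM (dotted line) in a group, 1 pooled value per group. *Krt5*, *Krt4*, *Krt16* and *Krt14* are lowest in Scr_600. In Nfat5-KO_600 *Krt5* and *Krt4* are above their value in Nfat5-KO_300, and *Krt16* and *Krt14* are below it.

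Genes that anchor or bind keratin filaments were less uniform. Of the 19 desmosome and plakin genes listed, 18 had a usable value (all but *Eppk1*) and 14 reached 0.5 FPKM. The median log2 difference of these 14 was -0.05 in Scr_600 vs. Scr_300 and -0.22 in Nfat5-KO_600 vs. Nfat5-KO_300. At 2-fold, 1 of these 14 was lower and 0 higher in the first comparison, beside 2.86% and 4.81% of all genes. In the second, 2 were lower and 0 higher, beside 4.11% and 6.25%. *Pkp1*, a plakophilin of the desmosomal plaque, was the lowest in the Scr comparison, with 2.74 FPKM in Scr_300, 0.663 in Scr_600, 5.02 in Nfat5-KO_300 and 0.901 in Nfat5-KO_600. *Perp*, a desmosome-associated membrane protein, had 62.4, 37.1, 72.0 and 45.5 FPKM in that order. At the other end, *Dsg2*, the desmoglein of simple epithelia, had 19.1, 32.3, 19.3 and 19.3 FPKM and was high in Scr_600 only, while *Pkp4*, a plakophilin-like junction protein, had 19.5, 24.1, 17.9 and 18.1 FPKM. *Dsp*, which encodes desmoplakin, the main link of keratin to the desmosome, stayed between 13.2 and 15.5 FPKM. In Nfat5-KO_300 vs. Scr_300 the list's median was 0.20, with 2 genes at least 2-fold higher, beside 1.73% of all genes. The 2 were *Plec*, which encodes the filament linker plectin, with 12.7 against 5.91 FPKM, and *Dsc2*, a desmocollin, with 19.4 against 9.58 FPKM. In Nfat5-KO_600 vs. Scr_600 the median was 0.03 and *Dst*, a plakin, was the 1 gene called, with 2.24 against 0.869 FPKM. Over all genes, 3.76% were at least 2-fold higher there.

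Of the 6 keratin-binding proteins listed, all reached 0.5 FPKM. At 2-fold, 1 was lower in each hypertonic comparison, beside 2.86% (Scr) and 4.11% (Nfat5-KO) of all genes. *Hspb1*, a small heat shock protein that binds keratin filaments, had 249 FPKM in Scr_300, 99.3 in Scr_600, 222 in Nfat5-KO_300 and 63.9 in Nfat5-KO_600, with log2 differences of -1.33 and -1.79 in the hypertonic comparisons. Like the keratins of the set other than *Krt23*, *Hspb1* was higher in both isotonic groups than in either hypertonic group. *Ywhaq*, a 14-3-3 protein, differed by -0.44 in Scr, *Tchp* by -0.02 and *Dnajb6*, a chaperone that binds keratin 18, by 0.24. The list's median was -0.12 in Scr and -0.34 in Nfat5-KO.

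Among 15 other intermediate filament genes, *Nes*, *Lmna*, *Lmnb1* and *Lmnb2* reached 0.5 FPKM and 0 were called at 2-fold in any comparison. Over all genes, the share called in each direction was between 1.73% and 6.25%. *Lmna*, the A-type lamin of the nuclear envelope, had 25.8 FPKM in Scr_300, 14.6 in Scr_600, 46.3 in Nfat5-KO_300 and 28.1 in Nfat5-KO_600. *Nes*, which encodes nestin, had 18.0, 15.2, 26.1 and 16.7 FPKM. Nestin does not form filaments by itself and usually assembles with vimentin, which was near 0 here. *Lmnb1* had the highest level of the list, 88.5 FPKM in Scr_300, and differed by -0.11 in Scr and -0.43 in Nfat5-KO, and *Lmnb2* differed by 0.02 and -0.36.

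**Figure D5:**
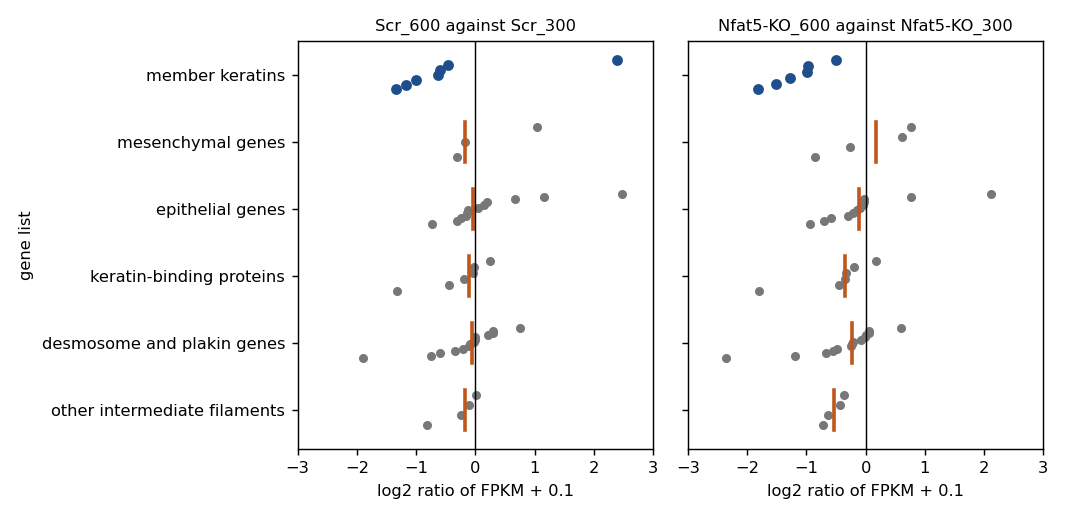
Log2 ratio of FPKM + 0.1 at 600 over 300 mosmol/kg, left in Scr and right in Nfat5-KO cells. Each point is a gene with at least 0.5 FPKM in either group and orange bars are list medians. *Krt7*, *Krt8*, *Krt18*, *Krt19*, *Krt20* and *Krt80* lie left of 0 in both panels, and the medians of the desmosome and plakin genes are -0.05 and -0.22.

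Epithelial identity genes were expressed throughout. All 12 listed genes reached 0.5 FPKM, and their median log2 difference was -0.04 in Scr_600 vs. Scr_300 and -0.11 in Nfat5-KO_600 vs. Nfat5-KO_300. *Epcam* had 304, 279, 233 and 211 FPKM and *Cdh1*, which encodes E-cadherin, 79.8, 72.7, 103 and 84.1 FPKM. *Epcam* and *Cdh1* were also lower at 600 mosmol/kg, by log2 -0.12 and -0.13 in Scr and -0.14 and -0.30 in Nfat5-KO. Of the 12 genes, 6 were below 0 and 6 above in Scr, and 10 below and 2 above in Nfat5-KO. *Cdh16*, the kidney cadherin, and *Cldn4*, a claudin of the collecting duct, were higher in Scr_600 than in Scr_300 (log2 2.47 and 1.17), and *Tjp1* and *Ocln*, both of the tight junction, were at -0.74 and -0.31. In Nfat5-KO_600 vs. Nfat5-KO_300, 3 of the 12 were at least 1.5-fold lower, beside 13.8% of all genes, with *Tjp1* (-0.93) and *Cldn4* (-0.59) among them. Another 2 were at least 1.5-fold higher, beside 14.1% of all genes, with *Cdh16* (2.12) among them. In Nfat5-KO_600 vs. Scr_600 the list's median was -0.26, with 9 genes below 0 and 3 above. At 1.5-fold, 3 were lower and 1 higher, beside 9.44% and 9.84% of all genes. *Cldn4* was the 1 gene of this list past 2-fold between genotypes, at 42.5 FPKM in Nfat5-KO_600 against 148 in Scr_600. Over all genes, 3.68% were at least 2-fold lower there. Of 14 mesenchymal genes, *Cdh2*, *Fn1*, *Snai1* and *Sparc* reached 0.5 FPKM. *Fn1*, which encodes fibronectin, had the most, with 22.0, 19.5, 43.0 and 23.9 FPKM, so a matrix gene was present in cells almost without *Vim* RNA. In Scr_600 vs. Scr_300 the log2 difference was 1.04 for *Sparc*, -0.18 for *Fn1* and -0.31 for *Cdh2*. *Sparc* passed the filter only through Scr_600 (0.930 FPKM, against 0.402 in Scr_300), so its difference carries no weight as a count. *Snai1*, a repressor of E-cadherin, was below 0.5 FPKM in both Scr groups (0.181 and 0.323 FPKM) and was not compared there. In Nfat5-KO_600 vs. Scr_600 *Cdh2* (0.01) and *Sparc* (0.05) were near 0, and *Fn1* was at 0.29. *Snai1* alone was past 2-fold (0.750 against 0.323 FPKM, log2 1.01), beside 3.76% of all genes. It passed the filter only through Nfat5-KO_600, so its call carries no weight as a count. In Nfat5-KO_300 vs. Scr_300, *Fn1* was at 0.96, and 0 of the 3 genes compared were past 2-fold. Over all genes, 2.44% were lower and 1.73% higher at that rule.

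By likeness of pattern over the 4 groups, measured as the distance between centred log2 values, the genes nearest to *Krt8* among 7859 genes with at least 5 FPKM were *Gm11518*, *Selenoh* and *Gatsl2*, at distances of 0.02, 0.03 and 0.05. *Krt7* took place 210 and *Krt18* place 603, so many other genes followed *Krt8* more closely than its filament partner did. The nearest to *Krt20* were *mt-Te*, *Dusp5* and *Sdcbp2*, and *Krt80* took place 41. The nearest to *Krt23*, among 13413 genes with at least 0.5 FPKM, were *Lgals3bp*, *Lypd2* and *Slfn2*. With 4 points per gene, such likeness is weak.

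The labelled cell type was checked against markers. Of 11 principal cell markers, *Aqp3*, *Scnn1a*, *Hsd11b2*, *Gata3* and *Kcnj1* reached 0.5 FPKM in a group. *Aqp2*, the vasopressin-regulated water channel that defines principal cells, had 0.245 FPKM in Scr_600, 0.219 in Nfat5-KO_600 and 0.0171 in Nfat5-KO_300, with a listed value of 0 in Scr_300, so this defining marker was nearly absent. The summed level of the principal cell list was 9.84 FPKM in Scr_300, 9.41 in Scr_600, 20.5 in Nfat5-KO_300 and 46.5 in Nfat5-KO_600. *Gata3*, which encodes a transcription factor, was the largest part of each sum, with 3.41, 4.33, 11.8 and 30.0 FPKM. Of the 5 markers compared in Nfat5-KO_600 vs. Scr_600, 4 were above 0. The other, *Kcnj1*, had 0.0740 against 0.725 FPKM. The sum is thus no measure of how like principal cells a group was. The summed level of 5 intercalated cell, 5 fibroblast and 3 endothelial markers was at most 0.535, 0.239 and 0.192 FPKM, with 0 genes at 0.5 FPKM. The part that a differing cell state may have in the keratin values was not tested. *Nfat5* RNA itself was 5.61, 7.93, 3.47 and 6.88 FPKM, and since small CRISPR edits need not remove the transcript, this level is no check of the knockout.

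Some values carry limits of counting. *Krt8* has a processed copy, *Krt8-ps*, that is 98.6% identical over 941 bases. It had 2.39, 1.52, 2.27 and 1.08 FPKM, or 0.646% of *Krt8* in Scr_300. Reads that fit both may be split between them or left out, and which was done is not given in the sources used here. The share is thus no measure of *Krt8* reads lost. The *Krt18* copies *Gm5200* and *Gm17847* (90.2% and 87.5% identical) were listed at 0, which likewise does not measure lost reads. *Krt7*, *Krt8* and *Krt80* overlap annotated genes on the other strand. Whether counting used strand is not given in the sources used here, so reads from the opposite strand cannot be told apart.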

How the data were processed

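The mpkCCD RNA-seq series held 12 libraries in 4 groups. Reads were aligned by the authors with HISAT2 to mm10 and counted with HTSeq, per the submitters' processing notes. The deposited FPKM values, made by the authors, give 1 value per gene and group. How libraries were merged is not given in the sources used here.

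Of 54839 rows, 2436 held no value, 311 exact repeats were dropped and 37 symbols with several differing rows were left out, which left 52015 genes. Values were compared as log2(FPKM + 0.1), which understates differences of low genes. Genes with at least 0.5 FPKM in either group were compared, 2-fold was the rule for a call, and a gene's own ratio is printed only with 0.1 FPKM or more in each group. With pooled values no test was run. Named genes were the 8 members, the 2 highest and 2 lowest of each list in Scr_600 vs. Scr_300 and the 3 nearest in pattern; *Dsp*, *Plec*, *Dsc2*, *Dst*, *Epcam*, *Cdh1*, *Krt16*, *Krt87* and the marker genes named were chosen after their values were seen. The members and lists were chosen with earlier results of these data known. Gene positions came from GENCODE (GRCm38), promoters from RefSeq (GRCm38.p6). The scripts were tested on data with known answers (Python 3.11.15, pandas 2.3.3, numpy 2.4.6, minimap2 2.31).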

Additional observations from a re-analysis of the deposited data

How the results depend on the processing

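The values are pooled per group, so nothing here has a replicate check and the depth behind each FPKM is unknown. No paired analysis was possible because each group has 1 deposited value, and leaving out single libraries was not run for the same reason. Pseudocounts of 1 and 0.01 FPKM and median-of-ratios scaling left 71 of 75 log2 ratios within 0.1 and turned 0. With a pseudocount of 1, *Krt23* in Scr_600 vs. Scr_300 was 1.07 and *Krt80* was -0.86 in Scr and -1.33 in Nfat5-KO. With 0.01, *Krt23* was 2.80. The counts of keratins moved as follows. At 1.5-fold, 5 were lower in Scr_600 vs. Scr_300, 5 lower in Nfat5-KO_600 vs. Nfat5-KO_300 and 2 higher in Nfat5-KO_300 vs. Scr_300. In Scr_600 vs. Scr_300 the count at least 2-fold lower went from 3 to 2 with a pseudocount of 1 and with median-of-ratios scaling, since *Krt80* left the rule. With the same scaling, 5 were at least 2-fold lower in Nfat5-KO_600 vs. Nfat5-KO_300, as *Krt7* and *Krt8* crossed the rule. A mean of at least 1 FPKM removed *Krt23*, which left 0 higher in Scr_600 vs. Scr_300 and 0 lower in Nfat5-KO_600 vs. Scr_600. With no filter, 1 (*Krt23*) was lower in Nfat5-KO_300 vs. Scr_300. The difference of the hypertonic response between genotypes moved by less than 0.1 in all 18 recomputations, and the type II to type I ratio over all 50 keratin genes was 0.604, 0.577, 0.658 and 0.549.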

Other observations

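Markers of other epithelia were low but differed between groups. Of 4 urothelial markers, *Upk1a* and *Upk2*, which encode uroplakins of the bladder surface, reached 0.5 FPKM. *Upk2* had 0.334 FPKM in Scr_300, 0.373 in Scr_600, 0.983 in Nfat5-KO_300 and 2.06 in Nfat5-KO_600, and *Upk1a* had 1.51, 1.04, 1.28 and 1.97 FPKM in that order. Both were highest in Nfat5-KO_600, whereas *Krt20*, also known from urothelium, was highest in Nfat5-KO_300. The basal cell factor *Trp63* stayed at or below 0.145 FPKM in every group. *Lrp2*, the endocytic receptor megalin of proximal tubule, had 1.07 FPKM in Nfat5-KO_600 and at most 0.168 FPKM elsewhere. Of 3 leukocyte markers only *Cd68*, a lysosomal protein, reached 0.5 FPKM, with 2.62, 1.84, 1.80 and 1.41 FPKM.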
